A study of Mus musculus with 9 samples.

Results

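The genes described here are 10 members of the NF-kB system, out of 28764 gene symbols listed for phagocytes sorted from the peritoneal wall of mice. They are the 5 subunits Nfkb1, Nfkb2, Rel, Rela and Relb and the 5 feedback inhibitors Nfkbia, Nfkbiz, Tnfaip3, Tnip1 and Tnip3. They were chosen by symbol, and Tnip3 was included because of its level in the CCR2-RFP libraries, so its values are a description without a test. The other 9 members were above 1 TPM (transcript abundance scaled for length and library, which allows genes to be compared) in all 9 libraries, and Tnip3 was so in 5.

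Each of 3 sorts, labelled 1, 2A and 2B, gave 1 library of each of 3 populations, and the study's design text says that 3 mice were sorted and carried as the replicates. All mice, whichever population was sorted from them, were Cx3cr1 gfp/+ Ccr2 rfp/+ crosses, in which GFP replaces a copy of Cx3cr1 and RFP replaces a copy of Ccr2. Every mouse had received 50 µg of Cascade Blue dextran intravenously a day earlier, and cells were released by 20 minutes of Liberase digestion. From cells positive for CD11b and negative for Ly6G, the double-negative population was dextran-positive and negative for MHC class II and both reporters (85 to 90% of the gated cells), the CCR2-RFP population was positive for MHC class II and the Ccr2 reporter (10 to 15%), and the CX3CR1-GFP population was positive for MHC class II and the Cx3cr1 reporter (0.5 to 1.5%). The labels name the double-negative and CX3CR1-GFP cells as sessile resident tissue macrophages and the CCR2-RFP cells as migratory tissue monocytes, and age and sex of the mice were not used here. Libraries were bulk RNA from 1 ng, so fewer cells of a type and less RNA per cell cannot be told apart.

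NF-kB is a family of dimeric transcription factors that are held in the cytoplasm by IkB proteins. Signals from Toll-like, interleukin-1 and TNF receptors activate the IKK kinase, which marks IkB for destruction and lets the dimers into the nucleus. Among the genes they switch on are their own inhibitors, which makes the system self-limiting, and macrophages use it to control cytokines, chemokines and survival genes.

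The reporter genes followed the sort. Ccr2 was between 95.4 and 115 TPM in the CCR2-RFP libraries and at most 6.68 TPM in the other 6, and Cx3cr1 was between 4.13 and 16.4 TPM in the CX3CR1-GFP libraries and listed at 0 elsewhere. The summed level of 10 monocyte markers was 4279 to 5342 TPM in CCR2-RFP, 1262 to 1676 TPM in double-negative and 1089 to 1241 TPM in CX3CR1-GFP libraries, and that of 10 resident macrophage markers was 771 to 1065, 2024 to 2285 and 1467 to 1841 TPM in the same order. The monocyte sum was mostly Lyz2, Fn1 and Lyz1, with means of 2116, 1181 and 1046 TPM in CCR2-RFP libraries. Plac8, Ly6c2 and Chil3 of that list averaged only 1.29, 0.373 and 0.397 TPM there, with Plac8 at 2.15 TPM in double-negative. Of the 10, 6 reached 1 TPM in 3 or more libraries. Of these, 5 were called higher in CCR2-RFP than in double-negative (limma), against 14.9% of all genes. Ccr2, by whose reporter the cells were sorted, is on this list, so its difference follows from the sort. Sums of 10 dendritic cell markers were 136 to 190 TPM in CCR2-RFP, 38.4 to 76.4 TPM in double-negative and 22.4 to 27.2 TPM in CX3CR1-GFP libraries. In CCR2-RFP the sum was mostly Cd209a, Irf4 and Batf3, with means of 93.3, 24.8 and 21.1 TPM. Of these markers, 8 reached 1 TPM in 3 or more libraries, Xcr1 through CCR2-RFP alone. Of the 8, 7 were called higher in CCR2-RFP than in double-negative (limma), against 14.9% of all genes. Sums of 7 neutrophil markers were 6.83 to 17.9 TPM in double-negative, 3.33 to 24.1 TPM in CX3CR1-GFP and 1.26 to 2.12 TPM in CCR2-RFP libraries, with Elane at 0 in all 9. A sum over 6 skeletal muscle markers set apart the sort 2A libraries of CX3CR1-GFP (1476 TPM) and CCR2-RFP (841 TPM) from the other 7 (35.5 to 311 TPM), so counts below are also given without sort 2A. The table added up to 356787 to 382828 TPM per library in CCR2-RFP, 324050 to 357087 TPM in double-negative and 278579 to 301604 TPM in CX3CR1-GFP. The CCR2-RFP and double-negative sums thus overlapped, and CX3CR1-GFP lay below both. TPM are scaled to a fixed total per library, and these sums are well below it. Which transcripts were left out of the table is not given in the sources used here.

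Stretches before a transcription start of 6 members are printed because kB sites in such stretches are the means by which NF-kB is known to act on its own inhibitors and subunits. Each is the 150 bases before a RefSeq transcription start in GRCm38.p6, on the strand of the gene, with every match to the kB consensus in capitals. The capitals join matches that overlap, and a match on the other strand is capitalised where it lies.

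Tnip3: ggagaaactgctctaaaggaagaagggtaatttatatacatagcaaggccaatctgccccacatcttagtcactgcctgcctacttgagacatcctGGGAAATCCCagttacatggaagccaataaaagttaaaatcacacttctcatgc
Tnfaip3: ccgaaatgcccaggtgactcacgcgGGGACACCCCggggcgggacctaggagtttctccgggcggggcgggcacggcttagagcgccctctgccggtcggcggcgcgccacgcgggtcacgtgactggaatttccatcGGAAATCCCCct
Nfkbia: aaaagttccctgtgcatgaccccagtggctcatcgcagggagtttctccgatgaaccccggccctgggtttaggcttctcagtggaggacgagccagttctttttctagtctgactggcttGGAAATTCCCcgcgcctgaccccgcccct
Rel: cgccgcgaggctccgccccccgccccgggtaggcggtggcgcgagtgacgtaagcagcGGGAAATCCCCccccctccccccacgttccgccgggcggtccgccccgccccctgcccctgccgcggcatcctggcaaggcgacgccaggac
Tnip1: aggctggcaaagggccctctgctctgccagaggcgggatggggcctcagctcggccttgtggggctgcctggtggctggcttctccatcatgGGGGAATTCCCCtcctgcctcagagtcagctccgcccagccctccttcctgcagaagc
Nfkb2: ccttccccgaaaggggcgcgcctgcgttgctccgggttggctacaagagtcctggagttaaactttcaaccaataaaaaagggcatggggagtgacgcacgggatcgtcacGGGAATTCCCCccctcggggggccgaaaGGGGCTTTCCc

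Their positions are chr6:65590248-65590397 (plus strand) for Tnip3, chr10:19015411-19015560 (minus) for Tnfaip3, chr12:55492648-55492797 (minus) for Nfkbia, chr11:23770970-23771119 (minus) for Rel, chr11:54962941-54963090 (minus) for Tnip1 and chr19:46304587-46304736 (plus) for Nfkb2. RefSeq windows of 250 bases before to 50 bases after a start were given for 7 members, with 3 windows for Nfkb2 and 2 for Tnfaip3, and Nfkb1, Relb and Nfkbiz had none. The kB consensus of 10 bases, searched on both strands, was in at least 1 window of 6 of these 7 genes, Rela being the exception. Among all 32851 windows 4.51% held it, and among the 7609 genes kept in the fit that had a window 6.05% did. In Tnip3 the match lay 54 to 45 bases before the start, in Nfkbia 29 to 20 bases before it, and in Tnfaip3 125 to 116 and 12 to 3 bases before it. Rel and Tnip1 each had overlapping matches, from 92 to 82 and from 58 to 47 bases before the start. A match describes the letters only: Tnip1 and Nfkb2, which did not pass the test in any comparison below, held it as did Tnfaip3, Nfkbia and Rel, which did.

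In GENCODE M21 on GRCm38 (mm10), all 10 are protein-coding genes. The subunit genes lie at chr3:135584655-135691547 (Nfkb1), chr19:46304320-46312385 (Nfkb2), chr11:23736847-23770970 (Rel), chr19:5637483-5648130 (Rela) and chr7:19606217-19629438 (Relb). The inhibitor genes lie at chr12:55489410-55492647 (Nfkbia), chr16:55811375-55838899 (Nfkbiz), chr10:19000910-19015657 (Tnfaip3), chr11:54910785-54962917 (Tnip1) and chr6:65525313-65634040 (Tnip3). The printed stretches of Tnip3, Tnfaip3 and Nfkb2 lie inside these spans, so the RefSeq starts used for them are downstream of the GENCODE gene start. Nfkb2 shares 531 exon bases with AC114539.1 and 299 with Psd, both on the opposite strand, and the strand of counting is not given in the sources used here, so reads of these genes cannot be told apart. Psd itself was between 0 and 0.358 TPM.

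Among the subunits, Rel was the one whose level passed the test. Rel encodes c-Rel, a subunit with a transactivation domain that is prominent in myeloid and lymphoid cells. Rel was at 5.78, 6.24 and 4.65 TPM in the double-negative libraries of sorts 1, 2A and 2B, at 8.56, 12.1 and 9.37 TPM in CX3CR1-GFP, and at 12.5, 15.7 and 13.3 TPM in CCR2-RFP. The 3 populations did not overlap, with double-negative lowest and CCR2-RFP highest. On the log2(TPM + 1) scale, Rel was higher in CCR2-RFP than in double-negative libraries by 1.18 (SE 0.185, adjusted p = 0.000958, limma). The difference between CX3CR1-GFP and double-negative was 0.74 (adjusted p = 0.0709, limma) and that between CX3CR1-GFP and CCR2-RFP was -0.44 (adjusted p = 0.111, limma), and neither passed.

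Nfkb1 encodes p105, the precursor of p50, which pairs with RelA or c-Rel. Nfkb1 was at 6.69, 8.21 and 7.38 TPM in double-negative, 10.5, 9.94 and 9.39 TPM in CX3CR1-GFP and 9.06, 8.47 and 9.94 TPM in CCR2-RFP libraries. Both reporter-positive populations lay above every double-negative library and overlapped each other, but the spans were narrow. The difference from double-negative was 0.27 for CCR2-RFP (95% interval -0.07 to 0.61) and 0.38 for CX3CR1-GFP (0.04 to 0.72), with adjusted p = 0.248 and 0.271 in limma.

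Relb encodes the partner of p52 in the non-canonical branch of the pathway. Its levels were low, at 2.10, 2.21 and 2.44 TPM in double-negative, 3.48, 3.59 and 3.14 TPM in CX3CR1-GFP and 2.69, 2.16 and 2.45 TPM in CCR2-RFP libraries. All CX3CR1-GFP libraries lay above the other 6, whose ranges overlapped. The difference of CX3CR1-GFP from double-negative was 0.44 (95% interval 0.05 to 0.83, adjusted p = 0.264, limma) and that from CCR2-RFP 0.36 (-0.03 to 0.75, adjusted p = 0.161, limma). The latter passed in 1 of the alternative fits, after TPM were rescaled without a few dominant genes (0.59, adjusted p = 0.0337, limma).

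Rela and Nfkb2 varied more between libraries of a population than between populations. Rela encodes p65, the principal transactivating subunit, and Nfkb2 encodes p100, which is both the precursor of p52 and an inhibitor of RelB. Rela was at 5.15, 5.17 and 4.10 TPM in double-negative, 2.71, 19.6 and 3.50 TPM in CX3CR1-GFP and 4.36, 11.4 and 20.6 TPM in CCR2-RFP libraries. Nfkb2 was at 3.95, 3.25 and 2.85 TPM in double-negative, 3.25, 21.0 and 2.50 TPM in CX3CR1-GFP and 3.69, 3.52 and 3.89 TPM in CCR2-RFP libraries. A single CX3CR1-GFP library, that of sort 2A, was high for both genes, and for Rela 2 of the 3 CCR2-RFP libraries were high as well. The SD of Rela on the log2 scale was as large as or larger than that of 98.9% of the genes kept in CX3CR1-GFP and of 98.3% in CCR2-RFP libraries, and that of Nfkb2 in CX3CR1-GFP was so for 99.2%.

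Neither gene passed the test, and their intervals were wide. Rela differed by 0.96 between CCR2-RFP and double-negative (95% interval -0.44 to 2.37, adjusted p = 0.323, limma) and by 0.28 between CX3CR1-GFP and double-negative (-1.13 to 1.68, adjusted p = 0.886, limma). Nfkb2 differed by 0.12 (-1.12 to 1.35, adjusted p = 0.912, limma) and 0.67 (-0.56 to 1.91, adjusted p = 0.637, limma) in the same comparisons. Without the CX3CR1-GFP library of sort 2A, the differences between CX3CR1-GFP and double-negative turned to -0.50 for Rela and -0.17 for Nfkb2, and Rela was then called lower in CX3CR1-GFP than in CCR2-RFP (-1.46, adjusted p = 0.0487, limma).

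**Figure D1:**
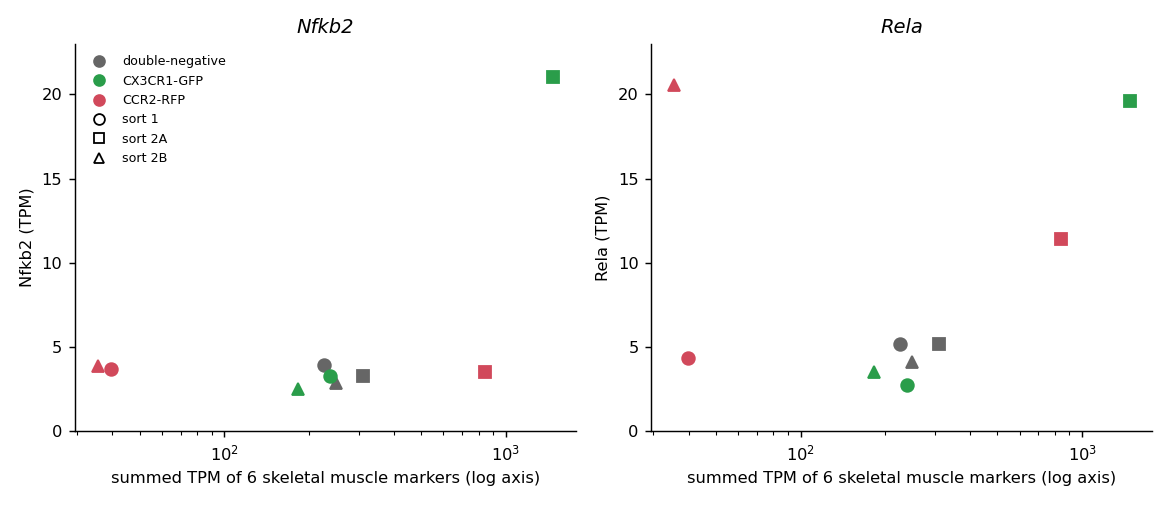
Level of Nfkb2 (left) and Rela (right) in TPM against the summed TPM of 6 skeletal muscle markers (log axis), 1 point per library, coloured by population and shaped by sort. The CX3CR1-GFP library of sort 2A has the highest marker sum and the highest Nfkb2, whereas the highest Rela, 20.6 TPM, is in the CCR2-RFP library of sort 2B, whose marker sum is the lowest.

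The CX3CR1-GFP library of sort 2A, with Nfkb2 at 21.0 TPM and Rela at 19.6 TPM, was also the library with the highest muscle marker sum, 1476 TPM. The part of these markers in the Nfkb2 level was not tested. In the CCR2-RFP library of sort 2A, with a muscle marker sum of 841 TPM, Nfkb2 was at 3.52 TPM. For Rela, the highest level was in the CCR2-RFP library of sort 2B, where the marker sum was 35.5 TPM.

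Among the inhibitors, Tnfaip3 differed between all 3 populations. Tnfaip3 encodes A20, a ubiquitin-editing enzyme that shuts off signalling upstream of IKK. Tnfaip3 was at 10.3, 9.17 and 8.56 TPM in double-negative, 20.8, 32.0 and 20.3 TPM in CX3CR1-GFP and 39.2, 44.4 and 42.9 TPM in CCR2-RFP libraries. No library of a population overlapped another population, and CX3CR1-GFP lay between the other two. On the log2(TPM + 1) scale, Tnfaip3 was higher than in double-negative by 2.06 in CCR2-RFP (SE 0.185, adjusted p = 2.66e-05, limma) and by 1.27 in CX3CR1-GFP (adjusted p = 0.00535, limma), and lower in CX3CR1-GFP than in CCR2-RFP (-0.80, adjusted p = 0.00991, limma). The last difference did not pass after TPM were rescaled without a few dominant genes (-0.50, adjusted p = 0.0758) or after quantile normalization (-0.46, adjusted p = 0.0920), and that between CX3CR1-GFP and double-negative did not pass without sort 2A (adjusted p = 0.0549, limma).

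Nfkbia encodes IkB-alpha, the inhibitor that holds NF-kB dimers in the cytoplasm and is remade after each activation. Nfkbia was at 66.2, 45.9 and 56.1 TPM in double-negative, 104.9, 115 and 80.2 TPM in CX3CR1-GFP and 124, 149 and 131 TPM in CCR2-RFP libraries. Again the populations did not overlap and kept the order double-negative, CX3CR1-GFP, CCR2-RFP. Nfkbia was higher than in double-negative by 1.26 in CCR2-RFP (SE 0.180, adjusted p = 0.000521, limma) and by 0.82 in CX3CR1-GFP (adjusted p = 0.0410, limma). The CX3CR1-GFP call was lost with sort as a block (adjusted p = 0.0614, limma), without sort 2A (adjusted p = 0.258) and in 8 of the 9 fits that left out a library. CX3CR1-GFP and CCR2-RFP differed by -0.44 (95% interval -0.84 to -0.04, adjusted p = 0.101, limma), which did not pass.

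Nfkbiz had another order. It encodes IkB-zeta, a nuclear relative that binds p50 and helps to switch on secondary response genes such as Il6. Nfkbiz was at 87.6, 77.7 and 74.6 TPM in double-negative, 122, 126 and 104 TPM in CX3CR1-GFP and 82.8, 75.3 and 98.1 TPM in CCR2-RFP libraries. CX3CR1-GFP lay above the other populations, whose libraries overlapped. Nfkbiz was higher in CX3CR1-GFP than in CCR2-RFP by 0.46 (SE 0.145, adjusted p = 0.0419, limma), a call that was lost with sort as a block (adjusted p = 0.0610, limma), without sort 2A (adjusted p = 0.275) and in 7 of the 9 fits that left out a library. The call held in 8 of 20 alternatives, among them quantile normalization, where the difference was 0.88. Against double-negative, the difference was 0.55 in CX3CR1-GFP (95% interval 0.22 to 0.87, adjusted p = 0.0894, limma) and 0.09 in CCR2-RFP (-0.23 to 0.41, adjusted p = 0.715, limma), and the last turned negative under other scalings.

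Tnip1 encodes ABIN1, a ubiquitin-binding partner of A20, and Tnip3 encodes ABIN3, its inducible relative. Tnip1 was low throughout, at 2.15, 2.08 and 1.55 TPM in double-negative, 2.19, 2.87 and 1.85 TPM in CX3CR1-GFP and 4.48, 1.70 and 2.09 TPM in CCR2-RFP libraries. The populations overlapped, and the highest value was that of a single CCR2-RFP library, of sort 1. Its differences were 0.30, 0.17 and -0.12 for CCR2-RFP against double-negative, CX3CR1-GFP against double-negative and CX3CR1-GFP against CCR2-RFP, with adjusted p = 0.502, 0.835 and 0.784 in limma.

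Tnip3, chosen for this pattern, was at 76.4, 78.5 and 76.8 TPM in CCR2-RFP, at 0.666, 0.473 and 4.70 TPM in the double-negative libraries, and at 0.543, 0.651 and 2.60 TPM in those of CX3CR1-GFP. The 3 CCR2-RFP libraries were nearly equal, with an SD on the log2 scale as large as or larger than that of 0.819% of the genes kept. Within both other populations the sort 2B library was the highest. Ccr2, Lyz1 (a lysozyme of monocytes) and Olfm1 were likewise highest in the sort 2B library of both: Lyz1 was at 18.2, 18.1 and 55.0 TPM in the double-negative libraries of sorts 1, 2A and 2B and at 7.56, 3.24 and 10.3 TPM in those of CX3CR1-GFP, against 916 to 1179 TPM in CCR2-RFP. The Ccr2 levels were 2.12, 1.65 and 4.62 TPM in the former and 4.29, 5.03 and 6.68 TPM in the latter. The sum of the 10 monocyte markers was highest in the sort 2B library of double-negative (1676 TPM) but lowest in that of CX3CR1-GFP (1089 TPM). These genes were named after their values were seen, Olfm1 as the gene with the pattern most like that of Tnip3. Their part in the Tnip3 level of the sort 2B libraries was not tested.

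**Figure D2:**
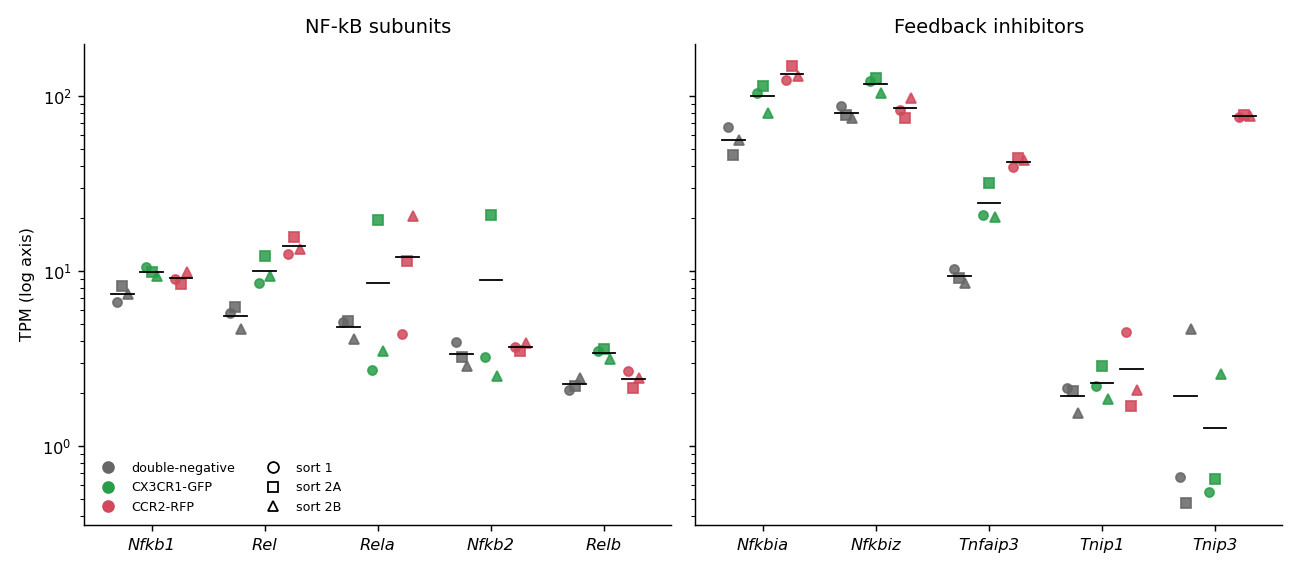
Level of each of the 10 members in TPM (log axis), subunits on the left and feedback inhibitors on the right, 1 point per library, with colour for population, shape for sort and a black line for the mean of 3 libraries. Means of Rel, Nfkbia and Tnfaip3 stand in the order double-negative, CX3CR1-GFP, CCR2-RFP, Nfkbiz and Relb are highest in CX3CR1-GFP, and Tnip3 is at 76.4 to 78.5 TPM in CCR2-RFP and at most 4.70 TPM elsewhere.

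Counted over the 9 members tested, 3 were higher in CCR2-RFP than in double-negative libraries (Tnfaip3, Nfkbia and Rel) and 0 were lower, against 14.9% of the 10136 genes called higher and 9.88% called lower. The libraries of 4 of the 9 did not overlap in that comparison, a share close to the 42.7% of all genes, and the median difference was 0.30 over the members and 0.09 over all genes. Between CX3CR1-GFP and double-negative, 2 of 9 were higher (Tnfaip3 and Nfkbia) and 0 lower, against 1.16% and 1.61% of all genes. There 6 of the 9 did not overlap, against 21.1% of all genes, and the median was 0.55 over the members and -0.03 over all genes. Without sort 2A, 0 of the 9 were called in that comparison by limma, and 4 had an unadjusted p under 0.05.

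Between CX3CR1-GFP and CCR2-RFP, Nfkbiz was higher and Tnfaip3 lower, against 8.96% and 17.3% of all genes, and 5 of the 9 did not overlap, against 39.4%. The median was -0.12 over the members and -0.11 over all genes. These comparisons share libraries in pairs and are not independent of each other. The scaling moved the whole distribution: with TPM rescaled without Siglece, Rn18s, mitochondrial and ribosomal protein genes, the median of all genes became -0.07, 0.04 and 0.13 in the order CCR2-RFP against double-negative, CX3CR1-GFP against double-negative and CX3CR1-GFP against CCR2-RFP. Calls over all genes then split as 990 higher and 1251 lower, 153 and 126, and 1435 and 981, in place of 1512 and 1001, 118 and 163, and 908 and 1758. Relative to the median of all genes, Tnfaip3, Nfkbia and Rel differed between CCR2-RFP and double-negative by 1.98, 1.17 and 1.10 as reported and by 1.94, 1.13 and 1.06 after that rescaling.

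**Figure D3:**
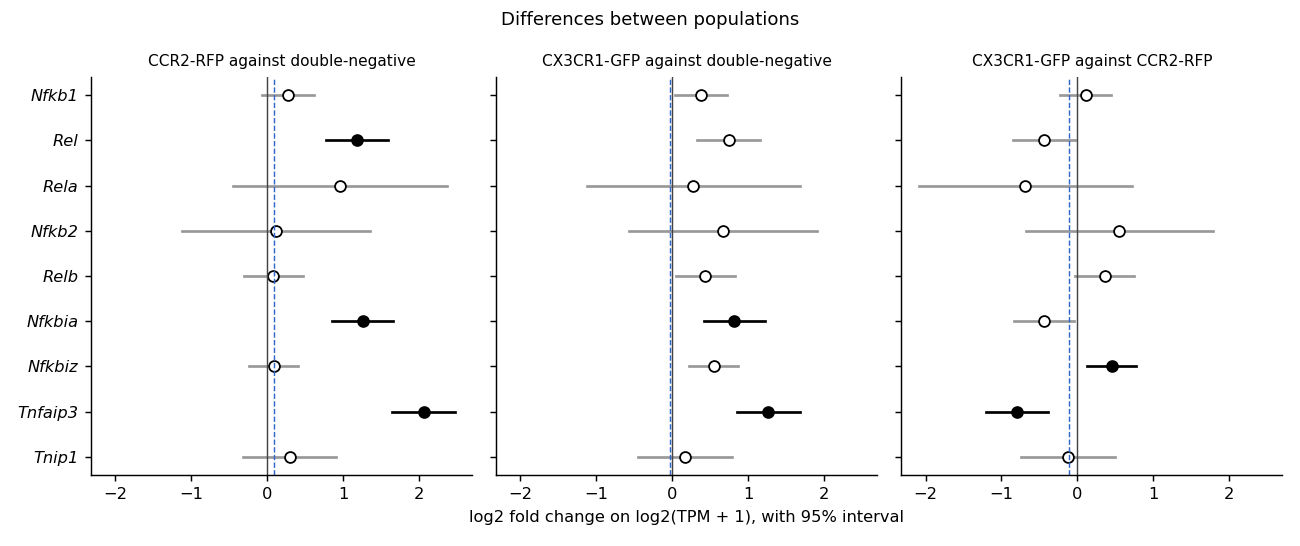
Difference in mean log2(TPM + 1) between populations for the 9 members tested, with the 95% interval from limma, 1 panel per comparison. Filled points passed the test over all genes, the solid line is 0 and the dashed line the median of all genes. Tnfaip3, Nfkbia and Rel are filled in the left panel, Tnfaip3 and Nfkbia in the middle one, and Nfkbiz and Tnfaip3 on opposite sides of 0 in the right one.

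Ratios within a library do not depend on how that library was scaled, and the 4 ratios that follow were chosen after their values were seen, so they are given as descriptions. Rel per Nfkb1 was 0.631 to 0.863 in double-negative, 0.815 to 1.22 in CX3CR1-GFP and 1.34 to 1.85 in CCR2-RFP libraries. Rel thus exceeded Nfkb1 in all 3 CCR2-RFP libraries and lay below it in all 3 double-negative libraries. Nfkbia per Nfkbiz was 0.591 to 0.756, 0.770 to 0.907 and 1.34 to 1.98 in the same order. Tnfaip3 per Nfkbiz was 0.115 to 0.118, 0.171 to 0.253 and 0.437 to 0.590, and Tnfaip3 per Nfkbia was 0.153 to 0.200, 0.198 to 0.279 and 0.298 to 0.327. In all 4 ratios the CCR2-RFP libraries stood above the other 6, and double-negative and CX3CR1-GFP overlapped in Rel per Nfkb1 and Tnfaip3 per Nfkbia.

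**Figure D4:**
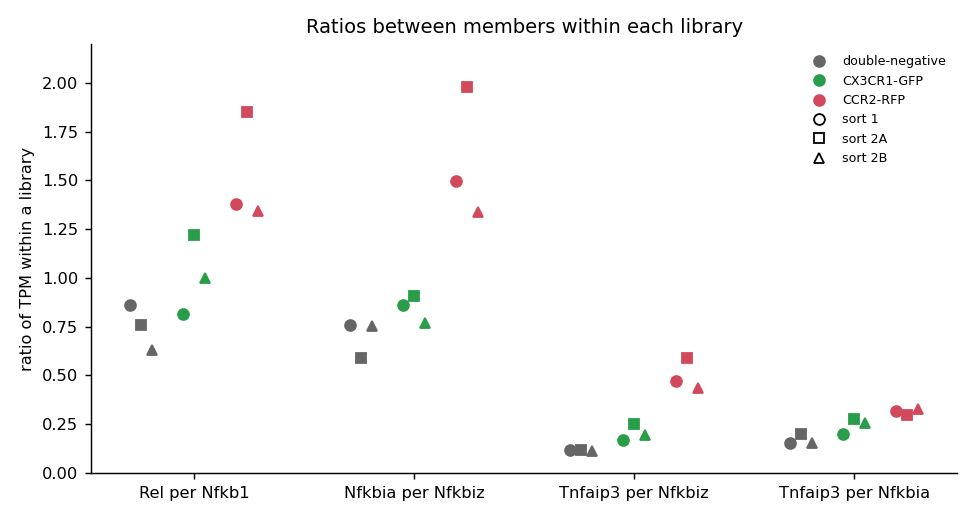
Ratio of the TPM of a member to that of another within each library, 1 point per library, coloured by population and shaped by sort. In each ratio the 3 CCR2-RFP libraries lie above the other 6, with Nfkbia per Nfkbiz at 1.34 to 1.98 against at most 0.907.

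Ratios of Nfkbia, Nfkbiz, Tnfaip3 and Tnip1 to Rela overlapped between the populations. Nfkbia per Rela was 8.88 to 13.7 in double-negative, 5.84 to 38.7 in CX3CR1-GFP and 6.37 to 28.4 in CCR2-RFP libraries, spans that follow the 2.71 to 20.6 TPM range of Rela itself. Leaving out Tnip3, which was chosen for its level, the other 4 inhibitors together came to 135 to 166 TPM in double-negative, 206 to 276 TPM in CX3CR1-GFP and 250.4 to 274 TPM in CCR2-RFP libraries. The reporter-positive populations thus overlapped each other and lay above double-negative. The 5 subunits together came to 21.4 to 25.1, 27.9 to 66.3 and 32.3 to 50.2 TPM. Transcripts of these 4 genes outnumbered subunit transcripts in every library, by 4.16 to 8.75 times, with the populations overlapping. Nfkbiz, which also helps to switch on genes, made up 74.6 to 87.6 TPM of the 4-gene sum in double-negative libraries. It made up 104 to 126 TPM in CX3CR1-GFP and 75.3 to 98.1 TPM in CCR2-RFP. The excess of the 4 genes is therefore not one of inhibition alone, and a ratio without Nfkbiz was not taken. Nfkbia by itself still exceeded the subunit sum in every library. It was at 45.9 to 66.2 TPM in double-negative, 80.2 to 115 TPM in CX3CR1-GFP and 124 to 149 TPM in CCR2-RFP. Of the subunit sum, Rel took 21.7 to 24.9% in double-negative, 18.3 to 33.6% in CX3CR1-GFP and 26.6 to 38.7% in CCR2-RFP libraries.

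Over the 9 libraries, which share populations and sorts, Rel, Nfkbia and Tnfaip3 followed each other. Pearson's r of log2(TPM + 1) was 0.982 between Rel and Tnfaip3, 0.965 between Nfkbia and Tnfaip3 and 0.924 between Rel and Nfkbia, and it was 0.872 between Nfkbiz and Relb. Among 3059 genes at 10 TPM or more in the mean of a population, the pattern most like that of Tnfaip3 was that of Il1b (r = 0.987 over 9 libraries), which encodes interleukin-1 beta and had means of 7.52, 56.4 and 227 TPM in double-negative, CX3CR1-GFP and CCR2-RFP. Dock10 (r = 0.985) and Cd74 (r = 0.984), a gene of MHC class II, by which cells were gated, were nearly as close. Means of these genes rose in the same order, so r cannot tell a link within the pathway from that order. The nearest pattern to Rel was that of Ccnd2, encoding cyclin D2 (r = 0.977), and that to Nfkbia was Icosl, encoding the ICOS ligand (r = 0.963). For Tnip3 it was Olfm1 (r = 0.996), but Tnip3 was chosen for its level in CCR2-RFP, which this r largely restates. The nearest to Nfkbiz was Ccl3, a chemokine (r = 0.914), with means of 24.5, 141 and 19.3 TPM in double-negative, CX3CR1-GFP and CCR2-RFP. That to Relb was Neurl3 (r = 0.960).

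The genes most like Rela and Nfkb2 shared their high libraries. Brox (r = 0.946 with Rela) was at 24.3 TPM in the CX3CR1-GFP library of sort 2A and 28.8 TPM in the CCR2-RFP library of sort 2B, against 3.56 to 11.4 TPM in the other 7. Ireb2 (r = 0.950 with Nfkb2) was at 27.4 TPM in the CX3CR1-GFP library of sort 2A and at 9.96 to 12.3 TPM in the other 8. For Nfkb1 the nearest pattern was that of Hdlbp (r = 0.886), and for Tnip1 that of Nktr (r = 0.788).

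The genes around the members were read from lists of the pathway. Of the other IkB proteins and their relatives, 0 of 8 were called in CCR2-RFP or in CX3CR1-GFP against double-negative by limma, with 1 and 0 at an unadjusted p under 0.05. Nfkbib, encoding IkB-beta, was at 5.56 TPM in CCR2-RFP, 6.09 TPM in CX3CR1-GFP and 2.78 TPM in double-negative on average, with adjusted p = 0.169 and 0.431 against double-negative in limma. Its CX3CR1-GFP libraries of sorts 1, 2A and 2B were at 11.6, 4.04 and 2.59 TPM, the last within the double-negative range of 2.53 to 2.94 TPM. All CCR2-RFP libraries, at 5.05 to 6.32 TPM, lay above that range. Between CX3CR1-GFP and CCR2-RFP, the small GTPase-like IkB binders moved in opposite directions, Nkiras2 being lower (3.03 against 6.67 TPM) and Nkiras1 higher (2.15 against 0.523 TPM). Over all genes, 17.3% were lower and 8.96% higher there. That comparison had 1 call, a lower one, without sort 2A, and 1 without the CCR2-RFP library of sort 2A or of sort 2B. CCR2-RFP against double-negative had 1 call without the CX3CR1-GFP library of sort 1.

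Of 14 other negative regulators tested (15 listed), 2 were higher in CCR2-RFP than in double-negative and 1 was lower, a share near the 14.9% and 9.88% of all genes. Zc3h12a, encoding the RNase Regnase-1 that degrades cytokine mRNAs, was at 30.0 against 11.6 TPM, and Cyld, a deubiquitinase, at 8.59 against 3.49 TPM. Otud7b, encoding the deubiquitinase Cezanne, was at 1.62 against 4.92 TPM. Against CX3CR1-GFP, the CCR2-RFP libraries were higher in 4 of the 14, Zc3h12a, Cyld, Itch and Pdlim2, where 17.3% of all genes were. CX3CR1-GFP and double-negative differed in 0 of 14 (limma, 2 at an unadjusted p under 0.05). Without sort 2A, 2 of the 14 were higher and 0 lower in CCR2-RFP against double-negative, and 2 were higher in CCR2-RFP than in CX3CR1-GFP. The 3 calls of the former comparison became 1 without the double-negative library of sort 1 or the CCR2-RFP library of sort 2B, and the 4 of the latter became 2 without the CX3CR1-GFP library of sort 1 or 2B or the CCR2-RFP library of sort 2A or 2B.

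Of 14 kinase and linear ubiquitin complex genes tested (16 listed), Ikbkb, the catalytic subunit IKK-beta, was higher in CCR2-RFP, at 29.4 against 15.9 TPM in double-negative and 16.6 TPM in CX3CR1-GFP. Sharpin, a subunit of the linear ubiquitin ligase, was higher in CCR2-RFP than in CX3CR1-GFP, at 6.67 against 3.32 TPM. Over all genes, 14.9% were higher in CCR2-RFP than in double-negative and 17.3% higher than in CX3CR1-GFP. Without sort 2A neither comparison had a call in this list (0 of 14, limma, with 2 and 3 at an unadjusted p under 0.05), and CX3CR1-GFP against double-negative had 0 of 14 with sort 2A included (2 at an unadjusted p under 0.05). The single call in CCR2-RFP against double-negative became 2 without the CX3CR1-GFP library of sort 1 or 2A, and the 2 calls in CX3CR1-GFP against CCR2-RFP became 1 without the CCR2-RFP library of sort 2A or 2B.

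Of 18 adaptors and TRAF proteins, 4 were higher in CCR2-RFP than in double-negative and 1 was lower, against 14.9% and 9.88% of all genes. Malt1, the paracaspase that cleaves A20, was at 15.3 TPM in CCR2-RFP, 4.22 TPM in CX3CR1-GFP and 3.24 TPM in double-negative on average, and Traf1 was at 6.32, 1.51 and 0.692 TPM. Both were also lower in CX3CR1-GFP than in CCR2-RFP, as were 3 others of the 18 and 17.3% of all genes. CX3CR1-GFP and double-negative differed in 0 of 18 (limma, 3 at an unadjusted p under 0.05). Without sort 2A, 2 of the 18 were higher in CCR2-RFP than in double-negative and 1 was lower, and 3 were lower in CX3CR1-GFP than in CCR2-RFP. The 5 calls in CCR2-RFP against double-negative became 3 without the double-negative library of sort 1 or the CCR2-RFP library of sort 2B, and the 5 in CX3CR1-GFP against CCR2-RFP became 3 without the CCR2-RFP library of sort 2A or 2B. CX3CR1-GFP against double-negative had 1 call without the double-negative library of sort 2A.

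Upstream receptors had calls in both directions. Of 15 tested (16 listed), 2 were higher in CCR2-RFP than in double-negative and 5 were lower, against 14.9% and 9.88% of all genes, with a median of -0.38. Tlr7, the endosomal receptor for single-stranded RNA, was at 5.40 TPM in CCR2-RFP, 35.0 TPM in CX3CR1-GFP and 38.1 TPM in double-negative, and Tlr4, the receptor for bacterial lipopolysaccharide, averaged 7.81 TPM in CCR2-RFP and 15.8 TPM in double-negative libraries. Clec7a, encoding the beta-glucan receptor Dectin-1, was higher in both reporter-positive populations, at 20.0 TPM in CCR2-RFP and 19.5 TPM in CX3CR1-GFP against 7.52 TPM. In CX3CR1-GFP against double-negative only 1 other receptor was called, Tnfrsf1a, the TNF receptor, at 27.7 against 59.6 TPM. Over all genes, 1.16% were called higher and 1.61% lower there. Against CCR2-RFP, 6 receptors were higher and 1 lower in CX3CR1-GFP, where 8.96% and 17.3% of all genes were. Without sort 2A, these counts were 2 higher and 3 lower in CCR2-RFP against double-negative, 0 and 0 in CX3CR1-GFP against double-negative (limma, 4 at an unadjusted p under 0.05), and 4 and 0 in CX3CR1-GFP against CCR2-RFP. The 7 calls in CCR2-RFP against double-negative became 3 without the double-negative library of sort 1 or the CCR2-RFP library of sort 2A, and 4 without the double-negative library of sort 2A or 2B or the CCR2-RFP library of sort 2B. The 2 calls in CX3CR1-GFP against double-negative became 1 without any single double-negative library or the CX3CR1-GFP library of sort 2A.

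Known NF-kB target genes had the largest share of calls among the 7 lists in each comparison. Of 36 listed, 32 passed the filter on low values, and Slc2a6 and Vcam1, which passed through CCR2-RFP and CX3CR1-GFP alone, are left out of the counts. Of the other 30, 17 were higher in CCR2-RFP than in double-negative, where 14.9% of all genes were. Another 4 were lower, where 9.88% of all genes were, and the median was 1.61. Among the higher ones were the survival genes Bcl2a1a (10.5 against 0.0271 TPM) and Bcl2a1d (33.9 against 1.25 TPM), whose near-identical copies can share reads, and Plaur, the urokinase receptor (22.1 against 1.90 TPM). Slc2a6, a transporter gene, was at 12.7 TPM in CCR2-RFP, 0.298 TPM in CX3CR1-GFP and 0.354 TPM in double-negative on average, given without a test. Between CX3CR1-GFP and double-negative, 12 were higher and 1 lower, against 1.16% and 1.61% of all genes, with a median of 0.68. The higher ones included Bcl2a1b (22.9 against 3.15 TPM), the chemokine Cxcl2 (84.1 against 17.6 TPM), Il1b (56.4 against 7.52 TPM) and Cd83 (206 against 103 TPM). Without sort 2A, 5 of the 30 were higher and 0 lower in that comparison, 16 and 3 in CCR2-RFP against double-negative, and 6 and 13 in CX3CR1-GFP against CCR2-RFP (limma).

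Between CX3CR1-GFP and CCR2-RFP, 6 of the 30 targets were higher and 13 lower, against 8.96% and 17.3% of all genes. Their median was -0.60, against -0.11 over all genes. Il6, encoding interleukin-6, was at 1.37 TPM in CX3CR1-GFP against 83.5 TPM in CCR2-RFP. Nfkbiz was called higher in CX3CR1-GFP in that comparison, a call that held in 8 of 20 alternatives. A link between the levels of Il6 and Nfkbiz was not tested. Plaur and Bcl2a1a were lower in CX3CR1-GFP as well. Means went the other way for Cd83 (206 TPM in CX3CR1-GFP against 87.1 TPM in CCR2-RFP), Ccl3 (141 against 19.3 TPM) and Ier3 (57.7 against 14.9 TPM). The kB consensus was in a window of 12 of the 29 listed targets with one, 41.4%. Of all genes with a window 5.14% held it, and of those kept in the fit 6.05%. The 29 come from the full list, not only from the 30 tested. Its genes were listed as known NF-kB targets, so a high share is partly built in.

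**Figure D5:**
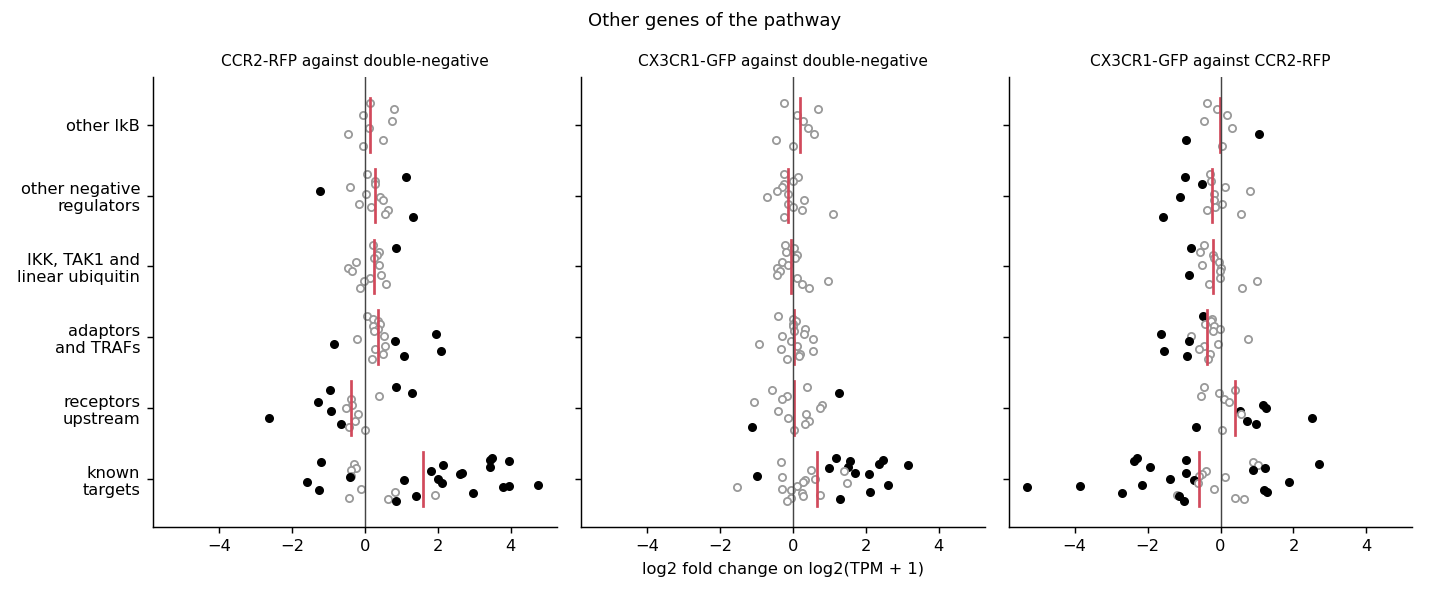
Difference in mean log2(TPM + 1) between populations for the genes of 6 pathway lists, 1 point per gene tested other than Slc2a6 and Vcam1, filled where it passed the limma test over all genes, with a red line at the median of each list. Known targets lie mainly to the right in the left panel (17 higher, 4 lower), with 12 higher and 1 lower in the middle panel, and upstream receptors have a median below 0 in the left panel.

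Immediate-early and dissociation response genes were read beside these because enzymatic digestion can raise them. Of 24 tested, 5 were higher in CCR2-RFP than in double-negative and 5 were lower, against 14.9% and 9.88% of all genes. In CX3CR1-GFP against double-negative 0 were called (limma, 4 at an unadjusted p under 0.05). Another 5 were higher and 5 lower in CX3CR1-GFP than in CCR2-RFP, where 8.96% and 17.3% of all genes were. Without sort 2A, the first comparison had 4 higher and 5 lower and the last 4 higher and 3 lower, and CX3CR1-GFP against double-negative had 1 call without the CCR2-RFP library of sort 2B. Fosl2, Nr4a1 and Egr2 were higher in CCR2-RFP than in double-negative, and Jun was lower, at 94.6 against 245 TPM. Their summed level was 3994 to 4725 TPM in double-negative, 4410 to 5421 TPM in CX3CR1-GFP and 3456 to 4241 TPM in CCR2-RFP libraries, and the part of digestion in the members' levels was not tested.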

How the data were processed

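RNA of 9 bulk libraries (3 populations, 3 sorts each) was analysed. The deposited values were TPM per gene symbol, which the authors computed on mm10. The submitters' processing notes name Salmon 0.11.3, cutadapt 1.8.3 and bcl2fastq 2.18. Not given in the sources used here were the annotation, how transcripts were summed per gene, and the strand setting. TPM keep no read counts, so the depth is unknown and the number of libraries sets the precision. No pair of columns was identical.

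Libraries were grouped by their titles, with which the column headings, source names and cell types match. In 6 of the 9 samples the description field gives the opposite reporter, and it was not used.

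Values were analysed as log2(TPM + 1) with limma 3.58.1 in R 4.3.3, with a mean per population over all 9 libraries, intensity trend, two-sided tests and Benjamini-Hochberg adjustment over the 10136 genes that reached 1 TPM in 3 or more libraries. Calls were made at an adjusted p under 0.05. Fold changes on this scale understate changes of low genes. The fit was tested on simulated data. Tables were made with Python 3.11.15, pandas 2.3.3 and numpy 2.4.6.

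The members and gene lists were chosen with earlier results of these data known. Named genes were all members, up to 4 called genes with the smallest p per list and comparison (or the 2 highest in mean TPM where none was called), and the genes of highest Pearson r with each member, leaving out Gm and Rik symbols and ribosomal protein genes. Gate and marker genes are named beside them. Of the 28764 symbols, 24700 are in GENCODE M21.

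Sorts were not used as a block in the fit reported. Same-sort libraries had residual correlations of 0.0315 to 0.205 over genes (9 pairs), and those of different sorts -0.160 to 0.112 (18 pairs). The design text gives 3 mice as the replicates, and the blocked values are given where they change a call. The alternatives were other pseudocounts (0.1 and 5), no filter or a filter at 5 TPM, 3 other scalings, the replicate block, no trend, only the populations compared, leaving out each library, and, chosen after seeing the data, leaving out sort 2A. Promoter windows came from RefSeq (GRCm38.p6). Protein sequences were not used here.

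Sums of marker lists not given in the report were low: at most 3.62 TPM for B cell, 7.98 TPM for T and NK cell, 27.4 TPM for adipocyte, 5.79 TPM for endothelium, 1.51 TPM for eosinophil, 34.2 TPM for mast cell, 6.23 TPM for mesothelium and 24.1 TPM for neutrophil markers in any library. Fibroblast marker sums were 10.3 to 108 TPM in double-negative, 39.3 to 125 TPM in CX3CR1-GFP and 12.6 to 60.4 TPM in CCR2-RFP libraries.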

Additional observations from a re-analysis of the deposited data

How the results depend on the processing

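Of 531 values of single members under 20 alternatives, 479 kept their direction and their side of the threshold. Between CCR2-RFP and double-negative, 3 members were called under all 20 alternatives, and Tnfaip3, Nfkbia and Rel were each called in all 20. Between CX3CR1-GFP and double-negative, the count of 2 became 1 with no filter, with sort as a replicate block, with no intensity trend and with only the populations compared, 4 with rescaled TPM and with quantile normalization, 1 to 2 when a library was left out, and 0 without sort 2A. Between CX3CR1-GFP and CCR2-RFP, the count of 2 became 1 with no filter, quantile normalization, the replicate block, no trend, only the populations compared and without sort 2A, and 1 to 2 when a library was left out. With rescaled TPM the count stayed at 2, but Relb was called higher (0.59, adjusted p = 0.0337, limma) and Tnfaip3 was no longer called. The paired fit with the replicate block changed no other count of members. Over all genes, calls between CX3CR1-GFP and double-negative fell from 118 higher and 163 lower to 64 and 82 with no filter, 57 and 69 without the double-negative library of sort 2A, and 33 and 55 without sort 2A.

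Differences that changed sign were small or rested on single libraries, and the cause was not tested. For CCR2-RFP against double-negative, Relb was -0.0059 with median-of-ratios scaling and -0.068 with rescaled TPM, Nfkbiz -0.029, -0.12 and, with quantile normalization, -0.16, and Nfkb2 -0.043 with rescaled TPM. When a library was left out, Nfkbiz ranged from -0.014 to 0.17 and Tnip1 from -0.013 to 0.50. For CX3CR1-GFP against CCR2-RFP, Tnip1 was 0.091 with rescaled TPM and -0.33 to 0.18 with a library left out, and Nfkb2 was -0.28 to 1.04 with a library left out and -0.31 without sort 2A. For CX3CR1-GFP against double-negative, Nfkb2 was -0.17 to 1.16 with a library left out and -0.18 without sort 2A, and Rela -0.50 to 0.74 and -0.45. Rel passed between CX3CR1-GFP and double-negative in 4 alternatives (limma, lowest adjusted p = 0.0418) and Nfkbiz in 2 (lowest 0.0183). The splits of calls with median-of-ratios scaling were 1241 higher and 1135 lower, 130 and 130, and 1120 and 1358, and with quantile normalization 1107 and 1136, 142 and 137, and 1110 and 1158, in the order CCR2-RFP against double-negative, CX3CR1-GFP against double-negative and CX3CR1-GFP against CCR2-RFP. Nfkb2, Relb and Tnip1 have no value with the filter at 5 TPM.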
